A study of Mus musculus with 9 samples.

Results

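Expression of 53 genes of mitosis, the kinetochore and cytokinesis was compared between control, SAHA-treated and Smarcb1-re-expressing T15 cells. The members are a list of symbols of mitotic genes, and each was matched to 1 of the 35288 Ensembl identifiers in the deposited count table. All 53 passed the filter on low counts that left 13697 tested genes, and the lowest count of any member in any library was 181, for Cenpk. They fall into 8 role groups: mitotic entry, the spindle assembly checkpoint, the anaphase-promoting complex with chromatid separation, the chromosomal passenger complex, the kinetochore, spindle motors, cytokinesis, and condensin with other chromosome proteins.

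T15 is a Smarcb1-negative mouse cell line of peripheral T-cell lymphoma, so every group lacks endogenous Smarcb1, a core subunit of the SWI/SNF chromatin remodeller. SAHA (vorinostat), an inhibitor of histone deacetylases, was given at 1 µM in 2 doses over 72 h. The Smarcb1-RE cells carry a Smarcb1 cDNA on the doxycycline-inducible lentiviral plasmid pInducer20 (pInd20 in the labels), were selected with G418 and were induced with 0.5 µg/µl doxycycline (Dox) for 72 h. Each group has 3 libraries, which the study calls biological replicates. For the controls of the RNA sequencing the study names untreated T15 cells, and for its re-expression scheme empty-vector cells given Dox. The labels name a vehicle in the SAHA experiment and a control plasmid in the re-expression experiment. The labels and the study conflict, so what the 3 control libraries received is uncertain. Where Smarcb1-RE is set against control, transduction, G418 selection and Dox therefore cannot be told apart from Smarcb1. The same limit holds against SAHA, since the study names no vector or Dox for the SAHA-treated cells. If the controls were untreated, a vehicle cannot be told apart from SAHA where SAHA is set against control. If the controls were empty-vector cells given Dox, transduction, selection and Dox would also differ in that comparison. They could then not be told apart from SAHA. Several independent clones were established, and the labels do not say whether the 3 Smarcb1-RE libraries come from 1 clone.

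As background, a cell enters mitosis when Cdk1 bound to cyclin A or B is activated, and the Plk1 and Aurora kinases then help to build the spindle. Kinetochores, assembled on centromeric chromatin, attach chromosomes to microtubules, and the spindle assembly checkpoint holds back the anaphase-promoting complex until all are attached; securin and cyclin B are then degraded, separase opens cohesin, and the cell divides. Most of these transcripts are known to peak in G2 and M phase under control of the MuvB complex with B-MYB and FOXM1, so their level in a bulk culture is tied to proliferation. In bulk RNA, fewer cells in these phases and less RNA per cell cannot be told apart. The study reports that Smarcb1 re-expression slowed growth but left viability and the cell cycle unaffected. For SAHA it reports no significant cell cycle effects at submicromolar doses. At higher doses, including that used here, it reports strong apoptosis, with most cells dead. The phases of the sequenced cells, and the part of dying cells in the SAHA libraries, were not tested.

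Library totals were 24564919 to 24941494 counts in control, 23403494 to 24189992 in SAHA and 20900477 to 21911177 in Smarcb1-RE. Smarcb1 itself, the check of the labels, measured 0.0850, 0.211 and 0.329 CPM in the controls, 0.303, 0.575 and 0.129 with SAHA and 6.44, 6.51 and 6.12 with Smarcb1-RE (CPM, counts scaled to a common library size after TMM normalization). Of 11 T cell markers 10 passed the filter, with a summed level of 3614 to 3783 CPM in control, 3749 to 3808 in SAHA and 4528 to 4600 in Smarcb1-RE, whereas myeloid markers summed to at most 0.765 CPM in any library. The sum of 5 B cell markers was 0.936 to 1.14 CPM in control, 1.24 to 1.86 in SAHA and 7.25 to 7.97 in Smarcb1-RE. The sum of 5 stromal markers was 155 to 161, 113 to 128 and 195 to 199 CPM. The part of these markers in the results was not tested. Control replicate 1 stood apart from the other two controls (chi-square per gene 12.5 and 14.1, against 2.07 to 4.55 in the other replicate pairs). Among the members it held higher levels of short transcripts, by a median of 0.11 on the log2 scale for the 9 members with under 3 kb of exons.

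In the SAHA libraries 51 of the 53 mitotic genes were lower than in control at an adjusted p under 0.05 (edgeR's quasi-likelihood test), against 34.3% of all tested genes. Only Pttg1 was higher, against 32.6% of all tested genes, and Hmmr did not pass. The median log2 fold change of the members was -0.43, or 74.3% of the control level, beside 0.0027 for all tested genes. In Smarcb1-RE, 50 members were lower (38.6% of all tested genes) and 0 were higher (39.2%). Ndc80, Cenpk and Mki67 did not pass. The median here was -0.69, or 61.9% of control, beside 0.014 for all tested genes.

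A decrease of at least 0.5 on the log2 scale was seen for 22 members with SAHA (13% of all tested genes) and for 41 with Smarcb1-RE (21.7%). With Smarcb1-RE, 13 members fell by 1 or more (6.78% of all tested genes), and with SAHA 2 did, Cenpn and Spc24 (2.35%), a share of the members near that of all genes. All 3 SAHA libraries lay below all 3 controls for 51 members (34.9% of all tested genes), and all 3 Smarcb1-RE libraries did so for 50 (39.1%). Replicates were close, with a median coefficient of variation over the members of 4.11% in control, 2.72% in SAHA and 2.81% in Smarcb1-RE. Over all tested genes it was 7.47%, 5.23% and 3.99%. Without control replicate 1 the counts were 51 lower and 1 higher for SAHA and 50 lower and 1 higher for Smarcb1-RE, the added gene being Cenpk. Scaled by library totals instead of TMM, the median of all genes in Smarcb1-RE against control moved to 0.17 and that of the members to -0.53, with 50 lower and Ndc80 higher.

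**Figure D1:**
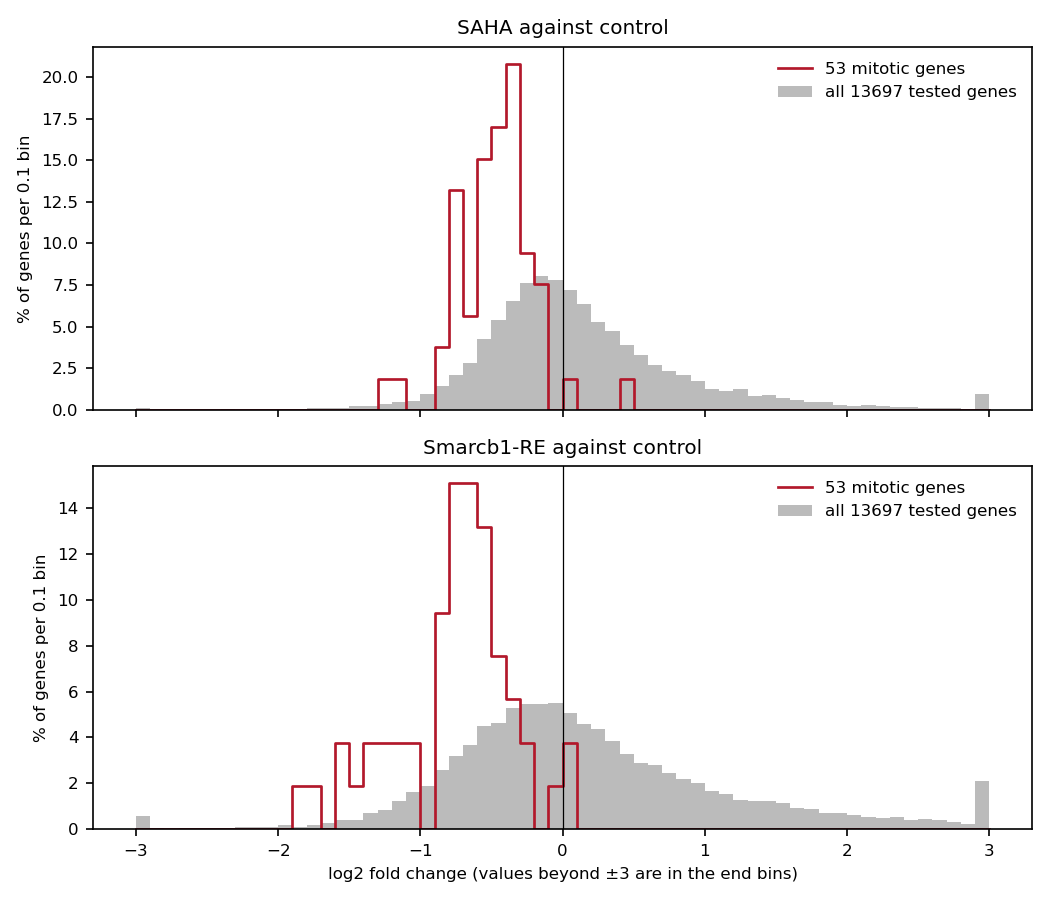
Distribution of log2 fold changes against control for the 53 mitotic genes (red outline) and all 13697 tested genes (grey bars), as percent of genes in bins 0.1 wide, for SAHA (top) and Smarcb1-RE (bottom). The members are displaced to the left in both panels, with medians of -0.43 and -0.69, while all tested genes centre near 0.

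**Figure D2:**
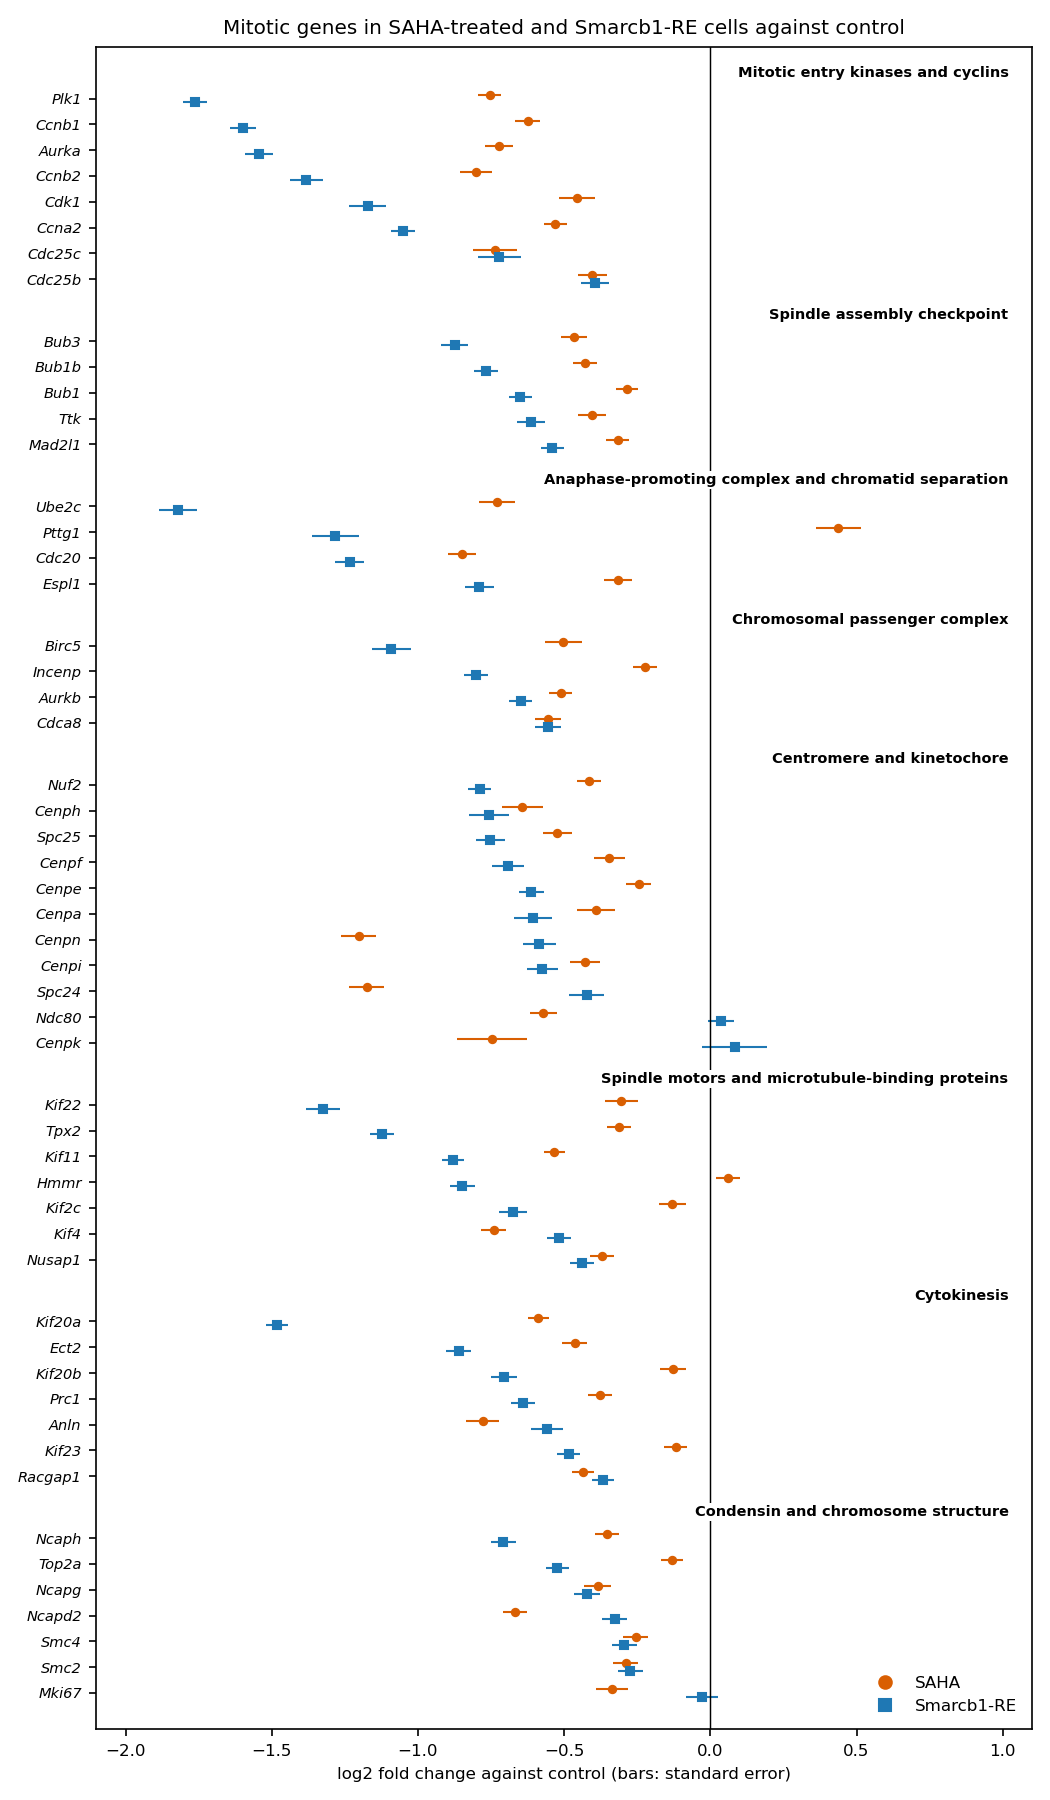
Log2 fold change against control (horizontal axis, bars show the standard error) of each mitotic gene, grouped by role, for SAHA (orange circles) and Smarcb1-RE (blue squares). Farthest left are Ube2c (-1.82), Plk1 (-1.76) and Ccnb1 (-1.60) in Smarcb1-RE, whereas Cenpn and Spc24 lie farther left with SAHA, and Pttg1 alone lies to the right of 0 by more than 0.1.

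The 8 mitotic entry genes were all lower in both treatments, with medians of -0.67 for SAHA and -1.28 for Smarcb1-RE. Plk1, the Polo-like kinase that promotes entry and spindle assembly (chromosome 7 from 122159439 to 122169873, plus strand, GRCm38), measured 102, 106 and 104 CPM in the controls, 61.2, 61.6 and 62.2 with SAHA and 30.4, 31.6 and 30.0 with Smarcb1-RE. The 3 groups did not overlap, and the level was 59.3% of control with SAHA and 29.5% with Smarcb1-RE (log2 fold changes -0.75 ± 0.039 and -1.76 ± 0.041, standard error, edgeR adjusted p = 8.09e-09 and 4.19e-12). Ccnb2, a B-type cyclin and partner of Cdk1 (chromosome 9 from 70407692 to 70421547, minus strand), measured 136, 125 and 118 CPM in the controls, 73.3, 70.8 and 73.3 with SAHA and 51.3, 46.1 and 47.9 with Smarcb1-RE. It had the largest decrease of the group with SAHA, -0.80 ± 0.055, and fell further with Smarcb1-RE, -1.38 ± 0.057. Cyclin B1 (Ccnb1) measured 155, 156 and 157 CPM in control, 106, 99.1 and 98.4 with SAHA and 53.5, 49.2 and 51.7 with Smarcb1-RE, so that its Smarcb1-RE level was 33.0% of control.

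Aurka, the centrosomal Aurora kinase, fell by 0.72 with SAHA and by 1.54 with Smarcb1-RE on the log2 scale. Cdk1, the kinase at the centre of mitotic entry, fell by 0.45 and 1.17, and its partner cyclin A2 (Ccna2) by 0.53 and 1.05. Of the Cdc25 phosphatases, which activate Cdk1, the 2 members Cdc25b and Cdc25c stood apart from this order. Cdc25b (chromosome 2 from 131186949 to 131198497, plus strand) measured 80.8, 88.3 and 87.1 CPM in the controls, 62.1, 66.2 and 65.2 with SAHA and 65.9, 67.1 and 61.9 with Smarcb1-RE. Both treatments lay below control by nearly the same amount, -0.40 ± 0.049 for SAHA and -0.39 ± 0.049 for Smarcb1-RE. Cdc25c likewise fell by 0.74 and 0.72. For neither Cdc25b nor Cdc25c did Smarcb1-RE differ from SAHA beyond the error, with 95% intervals of the difference of -0.099 to 0.12 and -0.16 to 0.18. The other 6 genes of the group were all lower in Smarcb1-RE than in SAHA. Cdc25a, which is not among the 53 members, was not called with SAHA (0.074 ± 0.042) and fell with Smarcb1-RE (-1.11 ± 0.045).

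**Figure D3:**
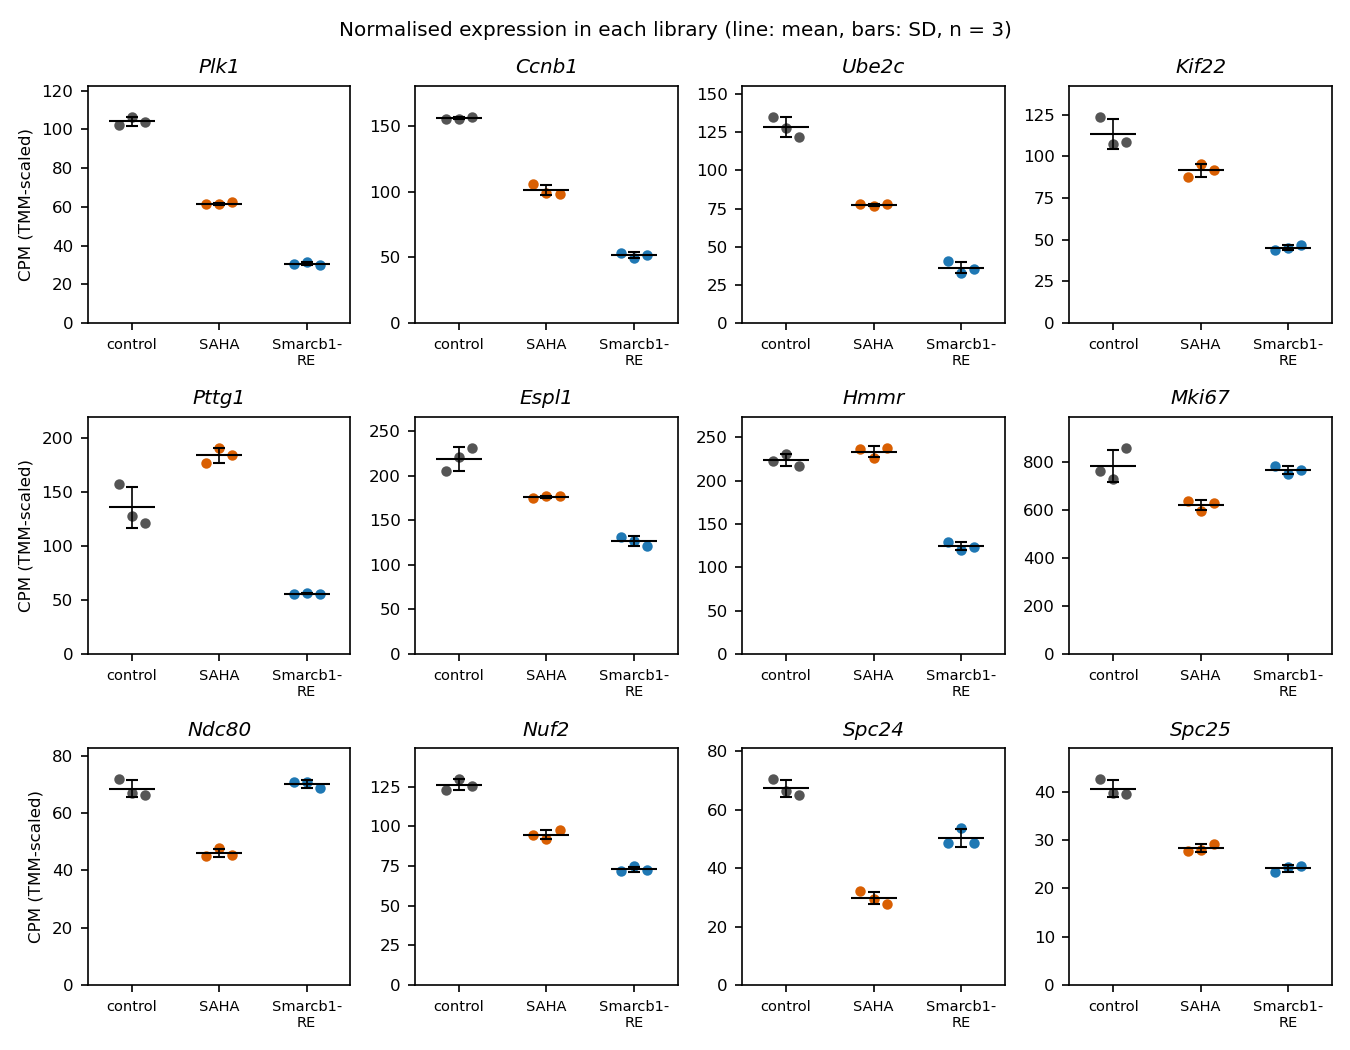
TMM-scaled CPM (vertical axes, starting at 0) of 12 mitotic genes in each of the 9 libraries, with points for libraries, the long line for the mean and bars for the SD (n = 3 per group). Plk1, Ccnb1, Ube2c and Kif22 step down from control to SAHA to Smarcb1-RE, Pttg1 is highest in SAHA and lowest in Smarcb1-RE, and Ndc80 and Mki67 in Smarcb1-RE overlap with control.

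All 5 spindle assembly checkpoint genes were lower in both treatments, in a narrow range from -0.29 to -0.47 with SAHA (median -0.40) and from -0.54 to -0.87 with Smarcb1-RE (median -0.65). Bub3, which recruits Bub1 and BubR1 to kinetochores (chromosome 7 from 131560222 to 131571895, plus strand), measured 228, 208 and 205 CPM in the controls, 158, 152 and 154 with SAHA and 116, 115 and 118 with Smarcb1-RE. It had the largest decrease of the group in both comparisons, to 72.3% and 54.6% of control (edgeR adjusted p = 1.36e-06 and 2.33e-09). Mad2l1, which encodes the Mad2 inhibitor of Cdc20 (chromosome 6 from 66535390 to 66547220, plus strand), had the smallest sum of changes. Its levels were 179.6, 169 and 167 CPM in the controls, 136, 139 and 138 with SAHA and 119.6, 119 and 115 with Smarcb1-RE, without overlap between groups, and its log2 fold changes were -0.32 ± 0.039 and -0.54 ± 0.040. The others were Bub1b (BubR1), at -0.43 and -0.77, and the kinases Ttk (Mps1), at -0.40 and -0.61, and Bub1, at -0.29 and -0.65. Scaled by library totals, Mad2l1 (-0.065, edgeR adjusted p = 0.137) and Ttk (-0.051, adjusted p = 0.332) were no longer called lower in Smarcb1-RE than in SAHA.

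Among the 4 genes of the anaphase-promoting complex and chromatid separation, the treatments took Pttg1 in opposite directions. Pttg1 encodes securin, the inhibitor of separase (chromosome 11 from 43420250 to 43426251, minus strand), and measured 157, 128 and 121 CPM in the controls, 177, 190.5 and 184 with SAHA and 55.4, 56.3 and 55.4 with Smarcb1-RE. Every SAHA library was above every control, among which replicate 1 was the highest, and every Smarcb1-RE library was below all others. Against control, Pttg1 was higher with SAHA (0.44 ± 0.076, edgeR adjusted p = 0.000232) and lower with Smarcb1-RE (-1.28 ± 0.081, adjusted p = 1.36e-08), and the difference between the treatments was -1.72 ± 0.081. Espl1, the separase that securin holds inactive (chromosome 15 from 102296266 to 102324357, plus strand), was lower in both. Its libraries gave 205, 221 and 231 CPM in the controls, 175, 177 and 177 with SAHA and 132, 127 and 121 with Smarcb1-RE, or changes of -0.31 ± 0.048 and -0.79 ± 0.049. On a scale of CPM per kb of exon, Pttg1 stood at 67.8 in control, 91.8 in SAHA and 27.9 in Smarcb1-RE, and Espl1 at 25.1, 20.2 and 14.5.

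Ube2c, the ubiquitin-conjugating enzyme that works with the anaphase-promoting complex (chromosome 2 from 164769898 to 164778822, plus strand), had the largest decrease of all 53 members in Smarcb1-RE. It measured 135, 128 and 122 CPM in the controls, 77.7, 76.4 and 77.9 with SAHA and 40.5, 32.9 and 35.5 with Smarcb1-RE, with the 3 groups apart from each other, and fell to 60.3% of control with SAHA and to 28.3% with Smarcb1-RE (-1.82 ± 0.066, edgeR adjusted p = 1.09e-10). Cdc20, the activator of the complex and the target of the checkpoint (chromosome 4 from 118432901 to 118437352, minus strand), showed 159.6, 151 and 142 CPM in the controls, 86.8, 81.5 and 82.7 with SAHA and 66.0, 62.1 and 64.2 with Smarcb1-RE. It had the largest SAHA decrease of the group (-0.85 ± 0.049) and reached -1.23 ± 0.050 with Smarcb1-RE. Sequence shared with other genes bears on how exactly 3 of these levels can be read: of all 31-base words in their transcripts, 27.7% of Ccnb1, 25.5% of Cdc20 and 14.8% of Plk1 occur also in another gene, mostly the pseudogenes Ccnb1-ps, Gm7856 and Plk-ps1. Those pseudogenes held a mean of 1.34, 0.229 and 0.689 counts per library, against 2408, 2330.3 and 1535 for the members. Shares of 6.06 to 7.86% were found for Ndc80, Ube2c, Spc24, Kif11 and Racgap1, and none for 12 members. Words were compared on the transcript strand only. Sequence shared with an overlapping gene on the opposite strand, as for Kif20a, is therefore not counted.

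The chromosomal passenger complex, which corrects faulty attachments and later marks the midzone, was lower for all 4 of its genes in both treatments (medians -0.51 and -0.73). Birc5 (survivin, chromosome 11 from 117849251 to 117855743, plus strand) measured 132, 110.2 and 117 CPM in the controls, 88.5, 79.8 and 85.2 with SAHA and 57.2, 53.8 and 57.6 with Smarcb1-RE. It had the largest Smarcb1-RE decrease of the complex, to 46.9% of control (-1.09 ± 0.066, edgeR adjusted p = 9.01e-09), and fell to 70.6% with SAHA. Cdca8 (borealin, chromosome 4 from 124918465 to 124939311, minus strand) showed 137, 127 and 125 CPM in the controls, 87.4, 88.5 and 89.1 with SAHA and 90.1, 85.6 and 89.1 with Smarcb1-RE. Both treatments brought it to about the same level, 68.1% and 68.0% of control, and the interval of their difference was -0.098 to 0.096. The scaffold Incenp (chromosome 19 from 9872296 to 9899551, minus strand) gave 193, 203 and 201 CPM in the controls, 168, 171 and 174 with SAHA and 119, 109.9 and 114 with Smarcb1-RE. Its SAHA change was small, -0.22 ± 0.041, and its Smarcb1-RE change was -0.80 ± 0.041, while the catalytic subunit Aurkb fell by 0.51 and 0.65.

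The 11 centromere and kinetochore genes moved in several patterns. All were lower with SAHA (median -0.52) and 9 were lower with Smarcb1-RE (median -0.61), but 4 of them, Cenpk, Spc24, Cenpn and Ndc80, were higher in Smarcb1-RE than in SAHA, and 6 were lower, beside 37.7% and 36.8% of all tested genes. Both directions were seen within the Ndc80 complex, the 4-subunit rod that binds microtubules. Ndc80 (chromosome 17 from 71496100 to 71526857, minus strand) measured 71.9, 67.0 and 66.5 CPM in the controls, 45.2, 47.8 and 45.2 with SAHA and 70.9, 71.0 and 68.7 with Smarcb1-RE. The SAHA libraries were below all others, whereas control and Smarcb1-RE overlapped: the change was -0.57 ± 0.046 with SAHA (edgeR adjusted p = 3e-07) and 0.036 ± 0.044 with Smarcb1-RE (adjusted p = 0.475, 95% interval -0.061 to 0.13). Its direct partner Nuf2 (chromosome 1 from 169497934 to 169531464, minus strand) showed 123, 129.9 and 125 CPM in the controls, 94.4, 91.8 and 97.5 with SAHA and 72.0, 74.7 and 72.2 with Smarcb1-RE. Here the order was control, SAHA, Smarcb1-RE without overlap, with changes of -0.41 ± 0.040 and -0.79 ± 0.041, the largest Smarcb1-RE decrease of the group.

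The other two subunits, which join the rod to the inner kinetochore, also parted. Spc24 (chromosome 9 from 21755442 to 21760303, minus strand) gave 70.5, 66.5 and 64.9 CPM in the controls, 32.0, 29.5 and 27.8 with SAHA and 48.4, 53.7 and 48.5 with Smarcb1-RE. It was lowest in SAHA, at 44.3% of control (-1.18 ± 0.061), and intermediate in Smarcb1-RE, at 74.6% (-0.42 ± 0.059). Spc25 (chromosome 2 from 69193895 to 69206194, minus strand) gave 42.7, 39.8 and 39.6 CPM in the controls, 27.7, 28.0 and 29.2 with SAHA and 23.4, 24.3 and 24.7 with Smarcb1-RE, which is -0.52 ± 0.050 and -0.75 ± 0.051, the reverse order. Thus in Smarcb1-RE against SAHA, Ndc80 (0.61 ± 0.046) and Spc24 (0.75 ± 0.063) were higher and Nuf2 (-0.37 ± 0.041) and Spc25 (-0.23 ± 0.052) lower (edgeR adjusted p = 8.43e-08, 2.12e-07, 3.05e-06 and 0.00155). Per kb of exon, the level of Nuf2 was 19.9, 14.9 and 11.5 CPM in control, SAHA and Smarcb1-RE, and that of Ndc80 was 10.5, 7.10 and 10.8. Scaled by library totals, Ndc80 in Smarcb1-RE was called higher than control (0.19, adjusted p = 0.00117) and the Spc25 difference between the treatments no longer passed (-0.070, adjusted p = 0.224).

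Inner kinetochore genes of the constitutive centromere-associated network differed too. Cenpn, whose product reads the CENP-A nucleosome (chromosome 8 from 116921730 to 116941507, plus strand), had the largest SAHA decrease of all members. It measured 42.9, 41.6 and 39.9 CPM in the controls, 17.7, 17.7 and 18.6 with SAHA and 27.9, 29.3 and 25.7 with Smarcb1-RE, or 43.4% of control with SAHA (-1.20 ± 0.058, edgeR adjusted p = 5.94e-09) and 66.7% with Smarcb1-RE (-0.58 ± 0.056). Cenpk (chromosome 13 from 104228611 to 104252392, plus strand), the member with the lowest level per kb in control, showed 17.6, 13.5 and 12.6 CPM in the controls, 9.36, 8.00 and 8.70 with SAHA and 15.6, 14.5 and 16.2 with Smarcb1-RE. Its controls were the most scattered of any member (coefficient of variation 18.4%), with control replicate 1 above the others and above the Smarcb1-RE libraries. Cenpk was lower with SAHA (-0.75 ± 0.12) and did not pass with Smarcb1-RE (0.083 ± 0.11, adjusted p = 0.514), but without control replicate 1 it was called higher there (0.24, adjusted p = 0.0205). Cenph and Cenpi, which sit in one subcomplex with Cenpk, were lower in both treatments, at -0.64 and -0.76 for Cenph and -0.43 and -0.57 for Cenpi.

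The remaining kinetochore members fell in both treatments and further with Smarcb1-RE. The centromeric histone Cenpa fell by 0.39 with SAHA and 0.61 with Smarcb1-RE. The motor Cenpe, which moves chromosomes to the metaphase plate, fell by 0.24 and 0.61, and the corona protein Cenpf by 0.35 and 0.69. All 3 were lower in Smarcb1-RE than in SAHA (Cenpa -0.21 ± 0.065, Cenpe -0.37 ± 0.044, Cenpf -0.35 ± 0.054), and the Cenpa difference did not pass when libraries were scaled by their totals (-0.057, edgeR adjusted p = 0.427).

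Of the 7 spindle motors and microtubule-binding proteins, 6 were lower with SAHA (median -0.31) and all 7 with Smarcb1-RE (median -0.85). Kif22, the chromokinesin Kid that pushes chromosome arms outward (chromosome 7 from 127027729 to 127042471, minus strand), had the largest Smarcb1-RE decrease. It measured 124, 107 and 109 CPM in the controls, 87.8, 95.4 and 91.9 with SAHA and 43.6, 45.2 and 46.7 with Smarcb1-RE, with Smarcb1-RE far below the other two groups, and changed by -0.30 ± 0.057 and -1.32 ± 0.060 (edgeR adjusted p = 0.000407 and 6.99e-10). The other chromokinesin, Kif4 (chromosome X from 100625737 to 100727214, plus strand), ran the other way, with 92.3, 98.1 and 91.3 CPM in the controls, 57.1, 55.1 and 56.2 with SAHA and 65.3, 65.6 and 65.8 with Smarcb1-RE. It had the largest SAHA decrease of the group, -0.74 ± 0.041, a smaller one with Smarcb1-RE, -0.52 ± 0.041, and was higher in Smarcb1-RE than in SAHA by 0.22 ± 0.042.

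Kif2c (MCAK), which takes microtubules apart at centromeres (chromosome 4 from 117159639 to 117182639, minus strand), gave 70.0, 71.8 and 68.1 CPM in the controls, 62.2, 63.0 and 66.5 with SAHA and 46.0, 43.2 and 42.2 with Smarcb1-RE. Its SAHA change was near the threshold (-0.13 ± 0.046, edgeR adjusted p = 0.0242) and was no longer called without control replicate 2 (-0.11, adjusted p = 0.0762), SAHA replicate 1 (-0.11, 0.0712) or SAHA replicate 2 (-0.12, 0.0753), or by DESeq2, while the Smarcb1-RE change was -0.67 ± 0.047. Hmmr, which organises spindle poles together with Tpx2 (chromosome 11 from 40701395 to 40733422, minus strand) and is named here because it alone was not called with SAHA, measured 223, 231 and 218 CPM in the controls, 237, 226 and 238 with SAHA and 129, 120.5 and 124 with Smarcb1-RE. SAHA and control overlapped (0.061 ± 0.041, 95% interval -0.029 to 0.15), and Smarcb1-RE was at 55.6% of control. Tpx2, the activator of Aurora A, fell by 0.31 and 1.12 in the same comparisons, the bipolar spindle motor Kif11 by 0.53 and 0.88, and the microtubule bundler Nusap1 by 0.37 and 0.44.

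All 7 cytokinesis genes were lower in both treatments (medians -0.44 and -0.64). Kif20a (MKLP2, chromosome 18 from 34624613 to 34633277, plus strand), the kinesin that carries the passenger complex to the midzone, measured 154, 153 and 153 CPM in the controls, 101, 101 and 104 with SAHA and 54.1, 53.8 and 56.5 with Smarcb1-RE. The groups were widely apart, at 66.5% and 35.8% of control (-0.59 ± 0.036 and -1.48 ± 0.038, edgeR adjusted p = 3.22e-08 and 8.78e-12). Anln (anillin, chromosome 9 from 22332012 to 22389188, minus strand), which links the contractile ring to the membrane, showed 64.5, 70.0 and 64.9 CPM in the controls, 39.4, 40.8 and 36.1 with SAHA and 44.6, 43.5 and 47.3 with Smarcb1-RE. It had the largest SAHA decrease, -0.78 ± 0.056, and a smaller one with Smarcb1-RE, -0.56 ± 0.055, so that it was higher in Smarcb1-RE than in SAHA by 0.22 ± 0.057. Kif23 (MKLP1, chromosome 9 from 61915905 to 61946774, minus strand) gave 197, 199 and 191 CPM in the controls, 178, 179.7 and 183 with SAHA and 145, 136 and 138 with Smarcb1-RE, and its changes, -0.12 ± 0.039 and -0.48 ± 0.039, had the smallest sum. With at least 10 counts required in every library, its SAHA change was not called (-0.085, edgeR adjusted p = 0.0604).

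Kif23 and Racgap1 together form centralspindlin, which recruits the RhoA activator Ect2. Racgap1 fell by 0.44 with SAHA and 0.37 with Smarcb1-RE, and Ect2 by 0.46 and 0.86. Kif23 was lower in Smarcb1-RE than in SAHA (-0.36 ± 0.039), whereas Racgap1 was not called between them (95% interval -0.015 to 0.15). The midzone bundler Prc1 fell by 0.38 and 0.64. Kif20b changed little with SAHA (-0.13 ± 0.044, edgeR adjusted p = 0.0214) and lost that call without control replicate 2 (-0.12, 0.0592), control replicate 3 (-0.11, 0.0739) or SAHA replicate 2 (-0.13, 0.0625), but fell by 0.71 with Smarcb1-RE.

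The 7 condensin and chromosome structure genes were lower with SAHA, as were 6 with Smarcb1-RE, with nearly equal medians of -0.34 and -0.33. Condensin I is built from the ATPases Smc2 and Smc4 and the subunits Ncapd2, Ncapg and Ncaph. Ncapd2 (chromosome 6 from 125168007 to 125191701, minus strand) measured 395, 431 and 411 CPM in the controls, 265, 253 and 260.4 with SAHA and 322, 334 and 329 with Smarcb1-RE. It was lowest in SAHA, at 63.0% of control (-0.67 ± 0.042, edgeR adjusted p = 3.47e-08), against 79.7% in Smarcb1-RE. Ncaph (chromosome 2 from 127103809 to 127133954, minus strand) gave 102, 109.9 and 109 CPM in the controls, 83.9, 84.4 and 82.9 with SAHA and 66.4, 65.8 and 64.2 with Smarcb1-RE, the opposite order, with changes of -0.35 ± 0.041 and -0.71 ± 0.041. The difference between the treatments was 0.34 ± 0.042 for Ncapd2 and -0.35 ± 0.042 for Ncaph.

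Smc2 fell by 0.29 with SAHA and 0.27 with Smarcb1-RE, Smc4 by 0.26 and 0.29, and Ncapg by 0.39 and 0.42, and none of these 3 was called between the treatments (95% intervals -0.076 to 0.11, -0.13 to 0.053 and -0.14 to 0.061). Top2a, topoisomerase II alpha, which untangles sister chromatids, had the highest level per kb of the members in control (97.9 CPM per kb) and fell by 0.13 and 0.52. Mki67, the source of the Ki-67 proliferation marker and a coat of mitotic chromosomes (chromosome 7 from 135689784 to 135716361, minus strand), measured 762, 731 and 861 CPM in the controls, 638, 597 and 629 with SAHA and 786, 753 and 769 with Smarcb1-RE. Its SAHA libraries were below all others (-0.34 ± 0.056, edgeR adjusted p = 0.000163), while its Smarcb1-RE libraries lay within the range of the controls (-0.029 ± 0.056, adjusted p = 0.651, 95% interval -0.15 to 0.093). In the same 3 Smarcb1-RE libraries, Plk1, Ube2c and Ccnb1 fell by 1.76, 1.82 and 1.60.

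Comparing the treatments directly, 36 members were lower in Smarcb1-RE than in SAHA (36.8% of all tested genes), 8 were higher (37.7%) and 9 were not called, with a median difference of -0.35. Of the 53 members, 34 were lower in both treatments and lower still in Smarcb1-RE (64.2%, beside 10.9% of all tested genes), and 5 were lower in both but higher in Smarcb1-RE than in SAHA (9.43%, beside 4.39%), namely Cenpn, Spc24, Ncapd2, Kif4 and Anln. A further 9 were lower in both and not called between them (17.0%, beside 6.25%). The 3 that were lower in SAHA, not called in Smarcb1-RE and higher in Smarcb1-RE than in SAHA, Cenpk, Ndc80 and Mki67, made up 5.66% of the members, near the 5.35% of all tested genes. Pttg1 and Hmmr, with the patterns given above, make up the rest. The largest negative differences were those of Pttg1 (-1.72 ± 0.081), Ube2c (-1.09 ± 0.067), Kif22 (-1.02 ± 0.060) and Plk1 (-1.01 ± 0.042). On the positive side stood Cenpk (0.83 ± 0.12), Spc24, Cenpn (0.62 ± 0.060) and Ndc80, all of the kinetochore, ahead of Ncapd2 and Mki67 (0.31 ± 0.056). The share of kinetochore members called higher, 36.4%, was near the 37.7% of all tested genes, and 54.5% were called lower.

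For the members not called between the treatments, some intervals, as those of Cenph and Cdc25c, reached differences as large as the called one of Aurkb. Besides Cdc25b, Cdc25c, Cdca8, Racgap1, Smc2, Smc4 and Ncapg given above, the intervals were -0.16 to 0.020 for Nusap1 and -0.27 to 0.042 for Cenph. Small differences in this comparison depended on the scaling. By library totals the median of all genes moved to 0.18, the split of all tested genes from 36.8% lower and 37.7% higher to 28.6% and 47.0%, and that of the members to 30 lower and 14 higher. Aurkb (-0.14 ± 0.040) and Cenpi (-0.15 ± 0.054) were called lower under TMM and changed sign under library totals (0.022 and 0.013, neither called). Library totals also brought 6 of the uncalled members above the threshold as higher in Smarcb1-RE than in SAHA, Racgap1 (0.23), Smc2 (0.18), Cdc25b (0.17), Cdca8 (0.16), Smc4 (0.12) and Ncapg (0.12). Cenpi also lost its call without SAHA replicate 1 (-0.12, edgeR adjusted p = 0.0696), SAHA replicate 3 (-0.15, 0.0581) or Smarcb1-RE replicate 3 (-0.13, 0.0896), and Cenph gained one without control replicate 1 (-0.12, 0.0461).

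**Figure D4:**
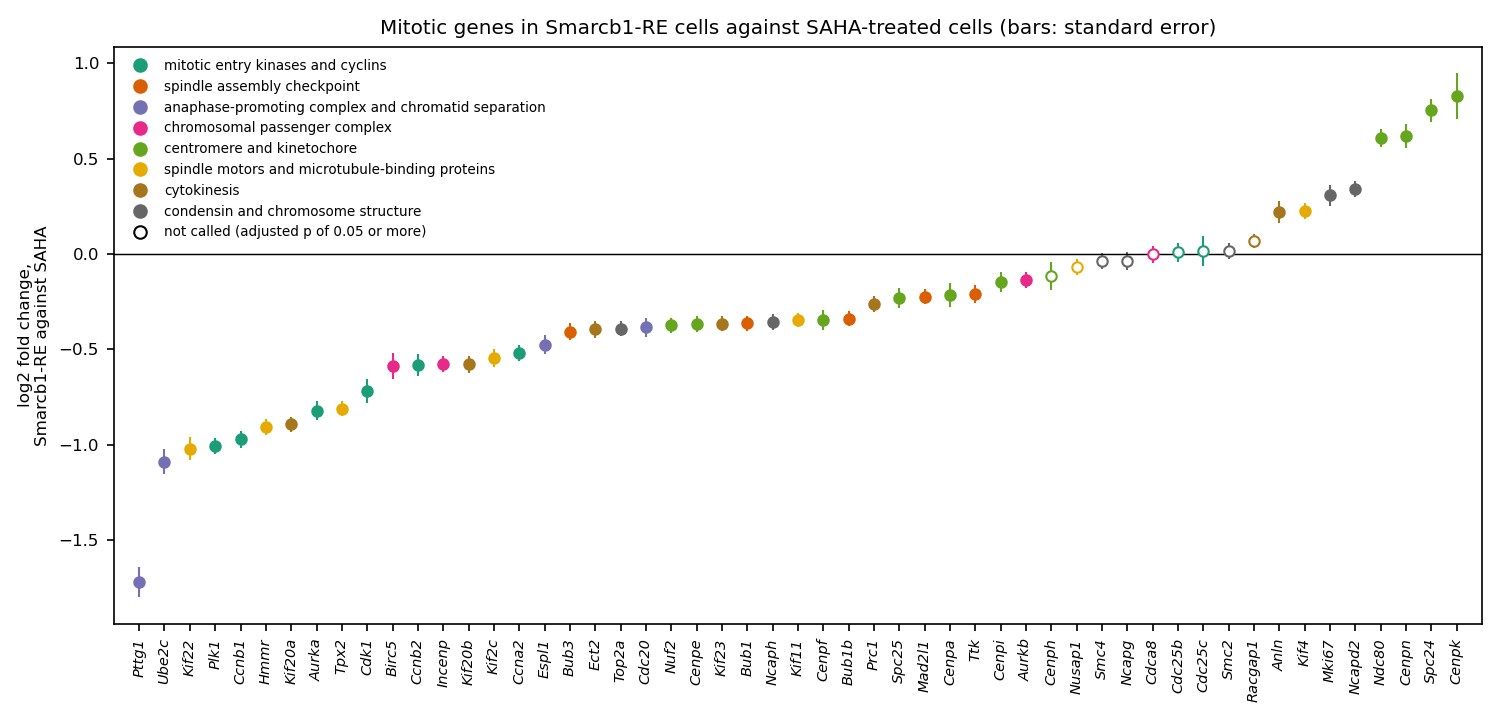
Log2 fold change of Smarcb1-RE against SAHA (vertical axis, bars show the standard error) of the 53 mitotic genes in rising order, coloured by role, with open symbols for genes not called. The 4 genes farthest up, from 0.61 to 0.83, are all of the centromere and kinetochore group, and Pttg1 stands lowest at -1.72. In that group 36.4% were called higher, near the 37.7% of all tested genes, and 54.5% lower.

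Promoters of mitotic genes are known for a cell cycle genes homology region (CHR), through which MuvB binds, and for CCAAT boxes. Promoter windows of RefSeq (GRCm38.p6, 250 bases before to 50 after each start) were found for 45 of the 53 members, in 50 windows, and none for Ccna2, Kif20a, Incenp, Tpx2, Spc24, Smc4, Aurkb and Cdc25c. The CHR letters, searched as TTTGAA or TTTAAA on both strands (TTTGAA reads TTCAAA on the other strand, and TTTAAA reads the same on both), were in 38 of the 50 member windows (76%), beside 27.6% of all 32851 windows. CCAAT, which reads ATTGG on the other strand, was in 40 (80%), beside 37.4%, and both were in 33 (66%), beside 10.7%. The 150 bases before the start are shown for 4 members with large changes, Ube2c (chr2:164769779-164769928, plus strand), Plk1 (chr7:122159285-122159434, plus strand), Cenpn (chr8:116921590-116921739, plus strand) and Cdc20 (chr4:118437344-118437493, minus strand), and for both genes of the Ndc80-Nuf2 pair, Ndc80 (chr17:71526858-71527007, minus strand) and Nuf2 (chr1:169531465-169531614, minus strand), which were chosen after their values were seen. They are written 5′ to 3′ on the strand of the gene, and capitals mark CHR and CCAAT letters:
Ube2c: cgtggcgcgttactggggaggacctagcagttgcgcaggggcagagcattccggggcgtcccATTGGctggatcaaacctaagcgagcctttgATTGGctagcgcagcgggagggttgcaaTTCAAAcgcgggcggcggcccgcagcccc
Plk1: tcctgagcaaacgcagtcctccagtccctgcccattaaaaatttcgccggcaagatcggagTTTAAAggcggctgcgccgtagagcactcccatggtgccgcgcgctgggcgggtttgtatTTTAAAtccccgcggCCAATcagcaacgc
Cenpn: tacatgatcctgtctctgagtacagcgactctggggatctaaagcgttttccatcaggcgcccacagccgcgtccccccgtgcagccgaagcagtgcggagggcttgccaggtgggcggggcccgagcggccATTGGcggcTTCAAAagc
Cdc20: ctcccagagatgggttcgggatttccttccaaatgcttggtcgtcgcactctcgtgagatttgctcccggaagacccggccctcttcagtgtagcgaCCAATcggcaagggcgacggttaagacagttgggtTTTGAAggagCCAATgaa
Ndc80: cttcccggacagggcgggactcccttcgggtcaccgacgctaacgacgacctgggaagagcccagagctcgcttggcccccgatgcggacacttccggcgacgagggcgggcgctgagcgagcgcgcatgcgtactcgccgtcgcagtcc
Nuf2: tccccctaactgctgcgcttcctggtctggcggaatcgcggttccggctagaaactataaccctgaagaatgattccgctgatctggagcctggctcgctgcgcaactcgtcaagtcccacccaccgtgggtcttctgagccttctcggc

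In Ube2c, Plk1, Cenpn and Cdc20 the CHR letters nearest to the start on its upstream side begin 29, 29, 9 and 18 bases before it. The starts are those of RefSeq and differ from some gene coordinates given above. By those coordinates the stretches of Ube2c, Cenpn and Cdc20 reach into the gene, and the CHR letters of Ube2c and Cenpn lie inside it. The stretches of Ndc80 and Nuf2 hold no capitals, and in Ndc80 the CHR letters begin 23 and 30 bases after the start. The 35 members with CHR letters had a median change of -0.45 with SAHA and -0.69 with Smarcb1-RE, and the 10 without, Pttg1, Nuf2, Cenpk, Cenph, Cenpi, Bub1, Mad2l1, Ncaph, Nusap1 and Cdc25b, had -0.39 and -0.61. For CCAAT the order differed between treatments, with -0.44 and -0.65 in the 35 members with the letters and -0.36 and -0.69 in the 10 without. A match of letters is a description of the window and not of binding.

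Of 97 other mitotic genes, 71 were lower and 7 higher with SAHA (median -0.32), beside 34.3% and 32.6% of all tested genes. With Smarcb1-RE 73 were lower and 14 higher (median -0.40), beside 38.6% and 39.2%. The largest called changes with SAHA were those of Pbk, a mitotic kinase (-1.06 ± 0.076), and the centrosomal kinase Nek2 (-0.95 ± 0.048), and with Smarcb1-RE those of cyclin F, Ccnf (-1.34 ± 0.050), and the spindle protein Fam83d (-1.33 ± 0.098). Between the treatments 40 were lower and 30 higher in Smarcb1-RE (41.2% and 30.9%, near the 36.8% and 37.7% of all tested genes), and the largest differences were those of Anapc16 (1.27 ± 0.065) and Cdc25a (-1.18 ± 0.045). The 29 further centromere and kinetochore genes among them had a median of -0.39 with SAHA and -0.31 with Smarcb1-RE, and 13 of them were higher and 7 lower in Smarcb1-RE than in SAHA, beside 37.7% and 36.8% of all tested genes.

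Among 13 genes of the MuvB, B-MYB and FOXM1 regulators, 8 were lower and 3 higher with SAHA (34.3% and 32.6% of all tested genes), and 7 lower and 2 higher with Smarcb1-RE (38.6% and 39.2%). Mybl2 (B-MYB) measured 88.7, 96.1 and 96.7 CPM in the controls, 62.3, 62.3 and 62.7 with SAHA and 65.1, 70.3 and 62.4 with Smarcb1-RE. Foxm1, the forkhead factor that follows B-MYB at these promoters, measured 133, 142 and 144 CPM in the controls, 105, 102 and 101 with SAHA and 108, 104 and 110.1 with Smarcb1-RE. Both fell with SAHA, by 0.59 and 0.44, and with Smarcb1-RE, by 0.51 and 0.38, and neither was called between the treatments (95% intervals -0.034 to 0.19 and -0.027 to 0.16). The largest called changes were those of the MuvB subunits Lin9 (-0.88 ± 0.051) and Lin54 (0.84 ± 0.049) with SAHA, of Tfdp2 (1.09 ± 0.059) and E2f4 (-1.05 ± 0.039), partners in E2F heterodimers, with Smarcb1-RE, and of Lin54 (-0.85 ± 0.049) and E2f4 (-0.83 ± 0.039) between the treatments. Of 41 DNA replication genes, 38 were lower and 0 higher with SAHA (median -0.51), beside 34.3% and 32.6% of all tested genes. With Smarcb1-RE 37 were lower and 2 higher (median -0.74), beside 38.6% and 39.2%. Tk1 (-1.26 ± 0.070) and Rfc5 (-1.16 ± 0.049) led the SAHA decreases, and Fen1 (-1.60 ± 0.043) and Mcm5 (-1.36 ± 0.045) those with Smarcb1-RE. Between the treatments Fen1 (-1.07 ± 0.043) and Orc1 (-0.95 ± 0.057) differed most.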

How the data were processed

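RNA of T15 cells was sequenced as single-end reads from a directional kit, with 3 libraries per group. The deposited table holds estimated counts per Ensembl gene, which the authors neither normalized nor pooled: 52.4% of values above 0 were not whole, and they were rounded here. The submitters' processing notes name Salmon 0.14.1, DESeq2 1.22.2, FastQC 0.11.8, MultiQC 1.7 and GRCm38. The strand setting of the counting is not given in the sources used here, so levels of members that overlap another gene (such as Kif20a with Cdc23, or Nusap1 with Oip5) are uncertain. Names, coordinates and exon lengths come from GENCODE M21 (GRCm38), which held 99.5% of the identifiers and 99.9% of the counts.

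Counts were analysed in R 4.3.3 with edgeR 4.0.16 (filterByExpr with a minimum count of 10, TMM, glmQLFit and glmQLFTest in one fit of 9 libraries). P-values were adjusted by Benjamini-Hochberg over all 13697 tested genes and called under 0.05. Standard errors were derived from the F statistic (size of the log2 change over the root of F), and 95% intervals from the t distribution. The biological coefficient of variation was 5.24%, and replicates of every pair differed by more than counting noise. The script was tested on simulated counts.

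Members and lists were chosen with earlier results of these data known, so lists are described by counts and medians, without a test. Named with full values are, per role group, the members with the largest change in each treatment, the one with the smallest sum of changes, and those whose direction differs from most of their group. In the other lists the 2 called genes with the largest changes are named. Library values of Ccnb1, Hmmr, Spc25, Mybl2 and Foxm1 were added after they were seen. Alternatives were RLE factors, library totals, 2 other count filters, DESeq2 1.42.0, separate fits, a replicate block, other thresholds and leaving out each library. The correlation of deviations between libraries with the same replicate number averaged -0.0071, so no shared effect of the number was seen. It cannot show whether libraries with the same number were prepared together.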

Additional observations from a re-analysis of the deposited data

How the results depend on the processing

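Across 18 alternatives, most calls of single members held. In SAHA against control 911 of the member values kept direction and call and 43 lost the call, 939 did so in Smarcb1-RE against control, where 9 lost it, and 894 in Smarcb1-RE against SAHA, where 33 lost it. Most losses came from requiring an absolute log2 fold change of 0.5, which left 22 members lower and 0 higher for SAHA against control and 16 lower and 4 higher for Smarcb1-RE against SAHA. Scaling by library totals gave 1 member higher in Smarcb1-RE against control and 14 in Smarcb1-RE against SAHA, with medians of -0.53 and -0.19. It reversed the sign of Aurkb (0.022), Cdca8 (0.16), Cenpi (0.013), Smc4 (0.12) and Ncapg (0.12) in Smarcb1-RE against SAHA, where the median of all genes moved from 0.017 to 0.18. Leaving out each library gave 0 to 1 members higher in Smarcb1-RE against control and a median of -0.376 to -0.337 in Smarcb1-RE against SAHA. The replicate block left 51, 50 and 36 members lower in the 3 comparisons and changed 0 of the 159 member calls. With at least 10 counts in every library, Kif2c, Kif20b and Kif23 were not called for SAHA, and Racgap1 was called higher in Smarcb1-RE than in SAHA (0.089), as in separate fits (0.067). The design cannot show changes well under 0.1 on the log2 scale, since the standard errors of most members are near 0.04.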
